A study of Mus musculus with 8 samples.

Results

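The genes described here are 33 members of the machinery that fuses synaptic vesicles with the presynaptic membrane and recovers them afterwards. They were taken by gene symbol from a count table of 41128 genes, and all 33 were found. Corpus callosum RNA of PLP-150Q mice was sequenced. These mice model Huntington's disease: the proteolipid protein promoter drives a mutant huntingtin fragment in oligodendrocytes. Both groups carried that transgene. The 4 LAQ libraries (numbered 5 to 8) came from mice given 5 mg/kg LAQ, read here as laquinimod, for 2 months from an age of 3 months, and the 4 control libraries (numbered 1 to 4) from mice given purified water as vehicle over the same period. All were 5 months old at collection. The submitters describe 4 treated and 4 control mice, and no label ties a library to a mouse, so each library was taken as 1 mouse.

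A synaptic vesicle fuses when the vesicle protein VAMP zips together with syntaxin and SNAP-25 on the plasma membrane into a SNARE complex. Synaptotagmins sense the calcium that triggers fusion, complexins clamp and promote it, and NSF with its SNAP adaptors pulls the spent complexes apart. Dynamin, endophilin, amphiphysin and synaptojanin then retrieve the membrane. The corpus callosum is a tract of axons and myelin, and most of these mRNAs are made in neuronal cell bodies, which lie in the grey matter beside it.

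Counted reads ran from 8790749 to 12021429 per library, and the 33 genes took 1.37% to 1.77% of them. All 33 passed the expression filter, the least counted being Doc2b with 51 to 123 reads. The 8 markers of mature oligodendrocytes summed to 11887 to 16503 CPM (counts per gene after scaling each library to the same size) and the 10 markers of cortical excitatory neurons to 2254 to 3861 CPM, so neuronal RNA was present in every piece. The library LAQ 7 stood apart from the rest. Its cortical excitatory markers summed to 2254 CPM against 3282 to 3861 CPM in the other 7 libraries, and its 12 pan-neuronal markers to 3646 against 4085 to 4435 CPM. The 6 striatal projection neuron markers found, of 7 listed, summed there to 3352 CPM against 472 to 1793 CPM. The interneuron markers of LAQ 7 summed to 1251 against 850.1 to 1041 CPM, and its oligodendrocyte markers to 16503 against 11887 to 14887 CPM. Of the interneuron list, Gad1 (611 against 353 to 462 CPM), Gad2 (282 against 144 to 198) and Slc32a1 (50.2 against 18.1 to 38.8) were highest in LAQ 7. Pvalb, Sst, Vip, Lhx6 and Npy lay there within the range of the other libraries. Between the groups, the 4 ependymal markers summed to 13.7 to 21.02 CPM in control and 26.7 to 31.7 CPM in LAQ without overlap, and all 8 oligodendrocyte and all 6 hippocampal markers had a positive log2 fold change. It was negative for 10 of 12 pan-neuronal markers (median -0.082), 7 of 10 cortical excitatory, 6 of 8 interneuron and 5 of 6 thalamic and habenular markers (median -0.41). Of these, 3, 3, 3 and 2 had an unadjusted edgeR p under 0.05, and 0 passed the adjusted threshold. Astrocyte markers were negative too in 6 of 8 (median -0.098) and microglia markers in 5 of 6 (median -0.077), whereas striatal projection neuron markers were positive in 4 of 6. On the higher side, 3 of 8 oligodendrocyte, 3 of 6 hippocampal and 4 of 4 ependymal markers had an unadjusted edgeR p under 0.05. Over all genes tested, 6.33% were lower and 4.77% higher at that p. Of the markers found, 1 hippocampal marker was at 0 in at least 1 library and no other was. The summed level of the 33 genes was 13604 CPM in LAQ 7 and 16346 to 17896 CPM elsewhere. In bulk tissue, fewer cells of a type and less RNA per cell cannot be told apart, and the part of these marker differences in the results below was not tested.

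Stx1a, the plasma membrane syntaxin, had the clearest difference of the 33 genes, at 0.65 times the control level. The syntaxin, both VAMP genes and Snap25 all had lower fitted levels in LAQ, as did 50.3% of all genes tested. Snap25 did not stay lower without LAQ 7, at a log2 fold change of 0.0074. The vesicle proteins were lower in 8 of 10, and the remaining roles were mixed. Among the further SNARE genes of the wider pathway list described below, 6 of 10 were lower. By edgeR's quasi-likelihood test over 15771 genes, 0 of the 33 had an adjusted p under 0.05, and the share called over all genes was also 0%. At an unadjusted p under 0.05 stood 4 of the 33 (12.1%), beside 11.1% of all genes tested. All 4 were lower in LAQ, beside 6.33% of all genes, and 0 were higher, beside 4.77%. The 4 LAQ libraries lay wholly below the 4 control libraries in 4 members, beside 3.61% of all genes, and wholly above them in 0 members, beside 2.78% (6.39% of all genes in either direction). Of the 33, 20 had a negative log2 fold change (60.6%, against 50.3% of all genes), with a median of -0.038 against -0.00120 over all genes. Without LAQ 7 the counts turned to 14 lower and 19 higher, with a median of 0.048. The plot of fold changes shows each gene with and without that library.

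**Figure D1:**
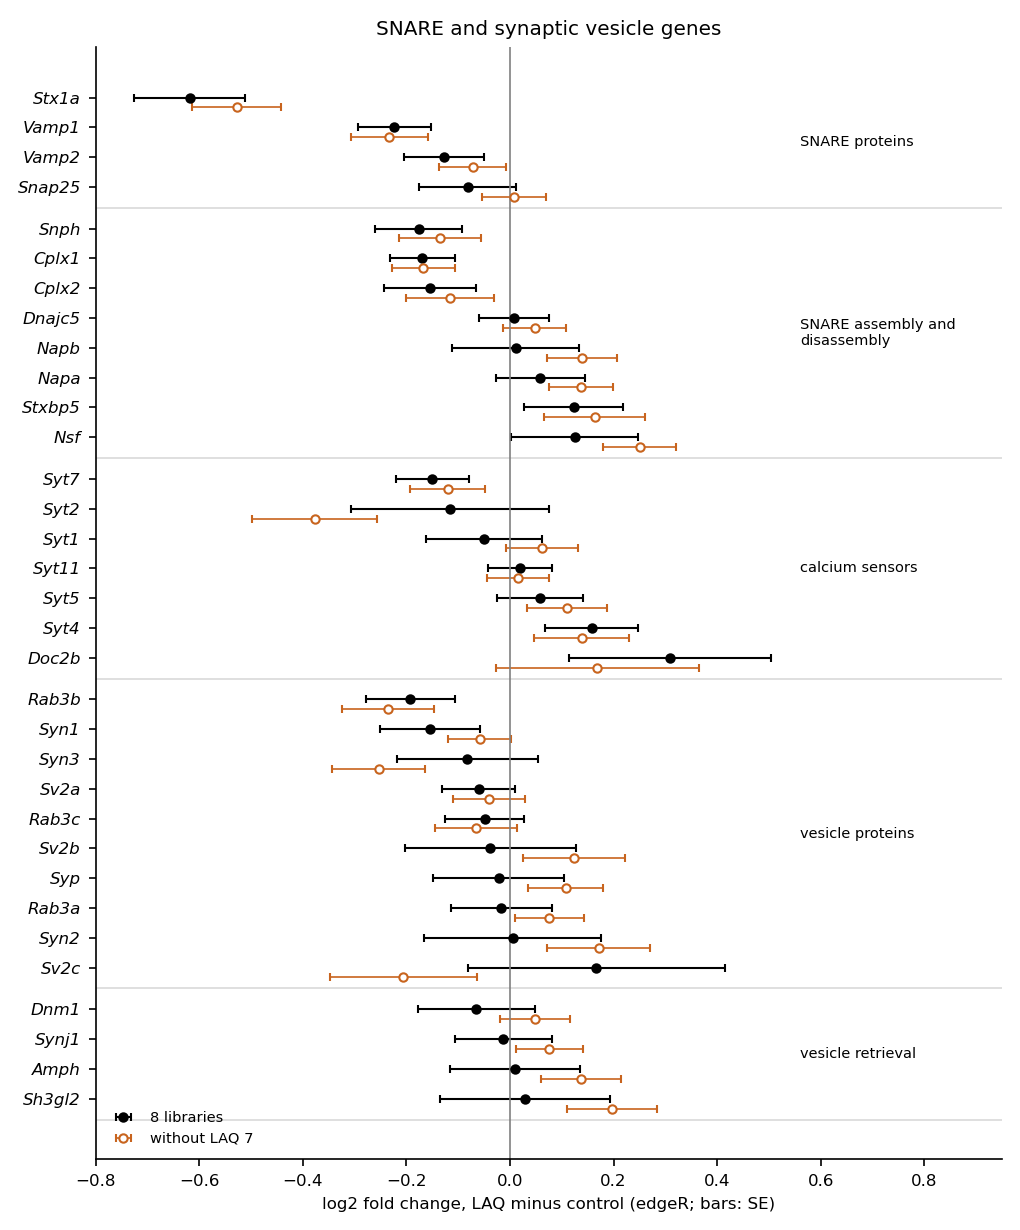
Log2 fold change of LAQ over control for each of the 33 genes, grouped by role, from edgeR with 8 libraries (filled points) and without LAQ 7 (open points); bars are standard errors. Stx1a stands farthest to the left at -0.62, and the open points of Sv2c and Syt2 lie well to the left of their filled points.

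Stx1a encodes syntaxin 1A, the target-membrane SNARE that binds the vesicle's VAMP. It stood at 244, 243, 205 and 208 CPM in controls 1 to 4 and at 145, 154, 118 and 170.0 CPM in LAQ 5 to 8. Every LAQ library was below every control library, with LAQ 7 the lowest and LAQ 8 the nearest to the controls. The means were 225 ± 21.5 and 147 ± 21.6 CPM (SD, n = 4 each), and the fitted log2 difference was -0.62 ± 0.11 (SE). Its unadjusted edgeR p of 9.49e-05 ranked 10 among 15771 genes, and its adjusted p was 0.136, which is the smallest any gene reached and is shared by 13 genes. Stx1a also missed the threshold with median of ratios normalization (edgeR adjusted p = 0.143), library size alone (0.143) and a filter at 1 CPM (0.144). The same held for limma voom (adjusted p = 0.142) and robust edgeR (0.0766). Leaving out any single library other than LAQ 7 gave edgeR adjusted p from 0.193 to 0.409. Without LAQ 7 the log2 fold change was -0.53 ± 0.085 (SE; edgeR adjusted p = 0.0185), and 2.13% of all genes passed in that fit. DESeq2 on all 8 libraries also called Stx1a (adjusted p = 4.87e-04) and none of the other 32 members, with 0.845% of genes called, and edgeR without an expression filter gave it an adjusted p of 0.0240 with 0.0993% of genes called. With the cortical excitatory marker score as a covariate its log2 fold change was smaller, at -0.51 (adjusted p = 0.0217), and 4.67% of all genes were called. With the pan-neuronal score it was -0.44 (adjusted p = 0.0783), and with the oligodendrocyte score -0.49 (adjusted p = 0.0845, 2.64% of all genes called). The unadjusted edgeR p of Stx1a was larger than in the main fit, at 4.09e-04, 4.94e-04 and 0.00464 in that order. The fit with the pan-neuronal score called 0 of the 33 and 0.00634% of all genes.

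Vamp1 encodes synaptobrevin 1, a vesicle SNARE of fast-firing neurons. It stood at 169, 161, 150.8 and 168 CPM in controls 1 to 4 and at 148.8, 126, 141 and 139 CPM in LAQ 5 to 8. The groups did not overlap, but control 3, at 150.8 CPM, and LAQ 5, at 148.8 CPM, lay close together. The fitted log2 difference for Vamp1 was -0.22 ± 0.071 (SE; edgeR adjusted p = 0.294), and it was -0.23 without LAQ 7. Vamp2, synaptobrevin 2, is the main vesicle SNARE of forebrain synapses. It ran from 1203 to 1337 CPM in control and stood at 1175, 1238, 1032 and 1225 CPM in LAQ. The groups overlapped, and the fitted log2 difference was -0.13 ± 0.077 (SE). Leaving out LAQ 7 gave -0.072. Snap25, the other plasma membrane SNARE of the complex, stood at 2798, 3032, 2712 and 2848 CPM in control and 2848, 2848, 2181 and 2890.2 CPM in LAQ. Only LAQ 7 was below the control range for Snap25, and its log2 fold change moved from -0.081 ± 0.094 (SE) to 0.0074 ± 0.062 (SE) without that library.

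**Figure D2:**
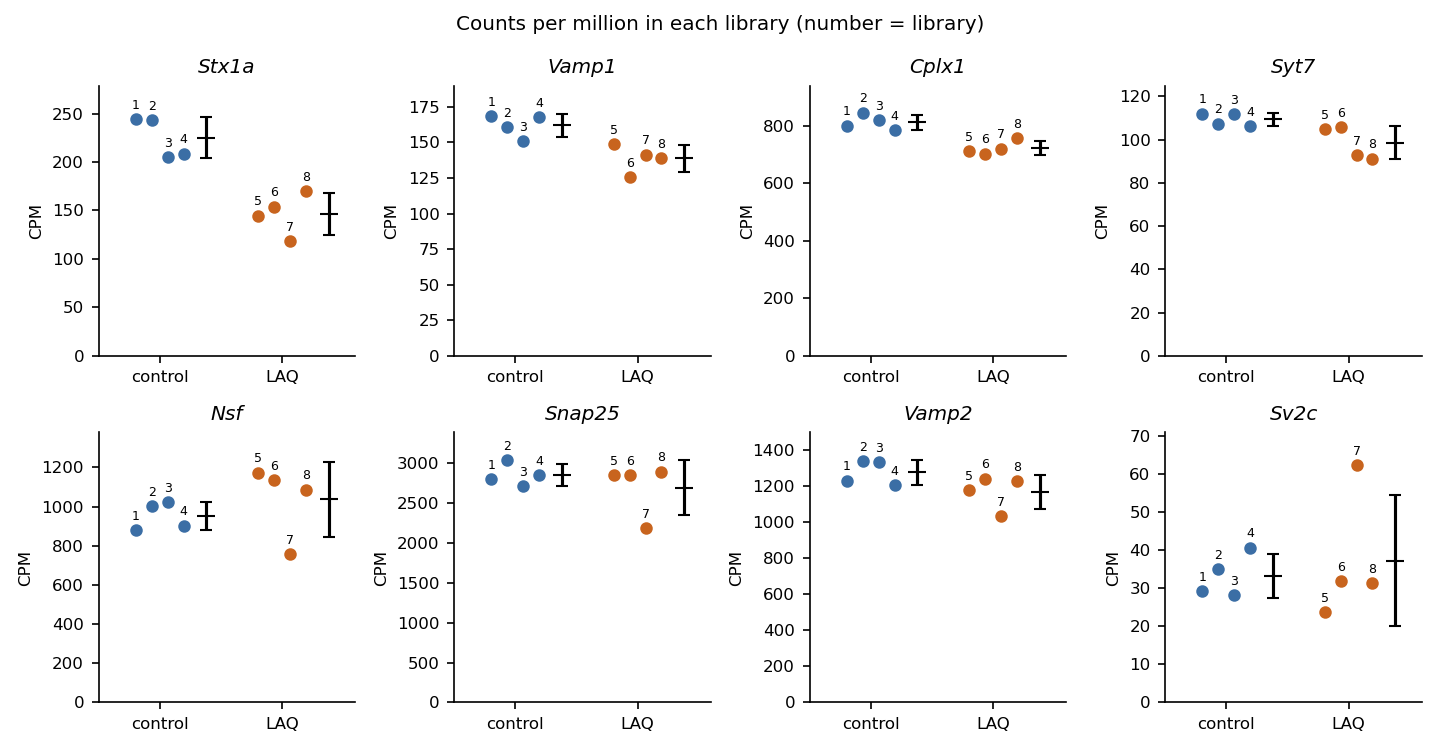
CPM of 8 genes in each library, numbered 1 to 8, with the group mean and SD (n = 4) in black; each axis starts at 0. Stx1a, Vamp1, Cplx1 and Syt7 have no LAQ library inside the control range, Vamp2 overlaps, and LAQ 7 is the lowest LAQ point of Nsf and Snap25 and the highest of Sv2c.

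The upstream sequences of Stx1a, Cplx1 and Vamp1, which are 3 of the 4 members whose groups did not overlap, are shown so that they can be compared, with that of Syn1 as a member whose promoter is a textbook case of neuronal restriction through an RE1 site. RefSeq windows on GRCm38.p6 were found for 25 of the 33 genes. The sequences read 5′ to 3′ and end before the annotated gene start. In the first 3, capitals mark GC boxes (GGGCGG) and, for Vamp1, also CCAAT boxes, on either strand. In Syn1 capitals mark the RE1 match and a cyclic AMP response element (TGACGTCA). Stx1a lies on the plus strand at chr5:135023232-135023481, Cplx1 on the minus strand at chr5:108550028-108550277, Vamp1 on the plus strand at chr6:125215331-125215550 and Syn1 on the minus strand at chrX:20921005-20921168.
Stx1a: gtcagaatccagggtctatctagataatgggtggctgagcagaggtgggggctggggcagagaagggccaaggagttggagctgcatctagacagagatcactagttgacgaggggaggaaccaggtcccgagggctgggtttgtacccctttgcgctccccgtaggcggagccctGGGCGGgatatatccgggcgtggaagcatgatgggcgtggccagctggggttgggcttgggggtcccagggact
Cplx1: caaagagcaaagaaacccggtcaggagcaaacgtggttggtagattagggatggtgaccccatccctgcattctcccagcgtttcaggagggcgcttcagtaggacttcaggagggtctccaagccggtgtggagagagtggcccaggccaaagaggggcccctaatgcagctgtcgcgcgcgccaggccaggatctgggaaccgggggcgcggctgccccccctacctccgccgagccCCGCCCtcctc
Vamp1: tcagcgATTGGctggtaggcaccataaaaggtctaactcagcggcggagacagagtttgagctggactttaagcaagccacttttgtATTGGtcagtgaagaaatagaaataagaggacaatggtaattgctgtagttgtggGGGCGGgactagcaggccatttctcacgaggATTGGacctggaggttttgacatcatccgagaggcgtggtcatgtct
Syn1: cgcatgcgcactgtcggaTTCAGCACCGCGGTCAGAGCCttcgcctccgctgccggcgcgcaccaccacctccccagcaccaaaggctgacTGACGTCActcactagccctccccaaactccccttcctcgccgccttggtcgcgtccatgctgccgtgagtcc
In the 250 bases before the start, a GC box was found in 17 of the 25 members, or 18 of their 33 windows (54.5%), against 32.7% of 32851 windows of all genes. CCAAT boxes were in 21.2% of the members' windows against 33.8% of all, and the TATA box letters TATAAA in 9.09% against 12.4%. The cyclic AMP response element was in 2 of the 33 windows (6.06%, those of Sh3gl2 and Syn1), against 1.55% of all. The Syn1 window was the only one of the 33 with an RE1 match at up to 3 mismatches (it had 1), against 0.0761% of all windows. Such matches describe the letters and do not show that a factor binds.

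Among the genes that assemble and take apart SNARE complexes, 3 of 8 had lower and 5 had higher fitted levels in LAQ, and 0 passed edgeR's test. Cplx1, complexin 1, binds the assembled complex and couples it to the calcium trigger. It stood at 800.2, 845, 818 and 784 CPM in control and at 712, 702, 719.8 and 755 CPM in LAQ, so that the groups did not overlap. The spread was narrow on both sides, with means of 812 ± 26.0 and 722 ± 23.1 CPM (SD, n = 4 each). On the log2 scale Cplx1 differed by -0.17 ± 0.062 (SE; edgeR adjusted p = 0.360, or 0.155 without LAQ 7). Cplx2, complexin 2, stood at 353, 337, 315 and 329.7 CPM in control and 261, 323, 275 and 339.5 CPM in LAQ, where LAQ 5 and 7 were below and LAQ 6 and 8 within the control range. Snph encodes syntaphilin, which anchors mitochondria on axons and was first described as a syntaxin binder. It had a log2 fold change of -0.18 ± 0.084 (SE), with groups that overlapped through LAQ 6.

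Nsf, Napa and Napb encode the ATPase and the SNAP adaptors that dismantle spent SNARE complexes. Nsf stood at 879, 1003, 1022 and 903 CPM in control and at 1174, 1135, 756 and 1087 CPM in LAQ. LAQ 5, 6 and 8 were above every control library and LAQ 7 was below them all, as the map of z scores by library shows. The same held for Napa, at 448 to 479 CPM in control against 531, 503, 399.5 and 488 CPM in LAQ, and for Napb, at 645 to 747 CPM against 765, 770.2, 507 and 765 CPM. With 8 libraries their log2 fold changes were 0.13 ± 0.12, 0.058 ± 0.086 and 0.011 ± 0.12 (SE), and without LAQ 7 they were 0.25 ± 0.071, 0.14 ± 0.061 and 0.14 ± 0.067 (SE). None passed edgeR's test in either fit, with adjusted p of 0.0806 for Nsf without LAQ 7. Nsf did pass with the cortical excitatory score as a covariate (log2 fold change 0.33, edgeR adjusted p = 0.0307, 4.67% of all genes called). It also passed with the oligodendrocyte score (0.46, adjusted p = 0.0460, 2.64% called). With the pan-neuronal score it did not (0.34, adjusted p = 0.119, 0.00634% called). Of the 8 libraries, LAQ 7 had the lowest cortical excitatory score (-1.41) and the highest oligodendrocyte score (1.68). Without LAQ 7, 3 of the 33 genes were higher in LAQ without overlap (9.09%, against 7.88% of all genes), namely Nsf, Napa and Napb. On the lower side 6 did not overlap (18.2%, against 8.69%).

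Stxbp5 encodes tomosyn, a soluble SNARE that competes with VAMP. It ran from 66.0 to 74.7 CPM in control and stood at 88.4, 79.6, 69.7 and 65.6 CPM in LAQ, with LAQ 5 and 6 above the control range. Dnajc5 encodes the vesicle chaperone CSP-alpha, which keeps SNAP-25 folded. It was level between the groups at 376 ± 13.5 and 378 ± 23.1 CPM (SD, n = 4 each), with a log2 fold change of 0.0077 ± 0.067 (SE).

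Of the 7 synaptotagmin and Doc2 genes, grouped here as calcium sensors, 3 were lower and 4 higher in LAQ by their fitted values, and 0 passed. The grouping follows gene family and not calcium binding. Syt11, for one, was counted among the higher ones and does not itself bind calcium. Syt7 encodes a slow, high-affinity synaptotagmin linked to asynchronous release and facilitation. It stood at 112, 107, 112 and 106 CPM in control and at 105, 106, 92.7 and 91.2 CPM in LAQ. The groups did not overlap, yet LAQ 5 and 6 were close to control 4, and the log2 fold change was -0.15 ± 0.071 (SE, edgeR adjusted p = 0.457). Syt1, the fast calcium sensor of forebrain synapses, stood at 1089, 1217, 1239 and 1067 CPM in control and 1193, 1230.1, 847 and 1185 CPM in LAQ. LAQ 5, 6 and 8 were inside the control range and LAQ 7 was below it. Syt2, the fast sensor of many hindbrain synapses and of parvalbumin interneurons, had the opposite pattern, at 43.0, 49.2, 41.3 and 55.4 CPM in control and 39.3, 39.2, 64.9 and 30.6 CPM in LAQ. LAQ 7 was the highest of the 8 libraries and the other LAQ libraries were below every control, so its log2 fold change went from -0.12 ± 0.19 to -0.38 ± 0.12 (SE) without LAQ 7 (edgeR adjusted p = 0.109).

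Syt11, which does not bind calcium and is expressed in glia as well as neurons, was among the least variable of the set. It stood at 1070.0, 1124, 1071 and 1059.6 CPM in control and at 1049, 1123, 1103 and 1106 CPM in LAQ, and the fitted log2 difference was 0.019 ± 0.062 (SE). Unlike Syt1, it was not low in LAQ 7. Syt4, an activity-regulated synaptotagmin of dense-core vesicles, averaged 135 ± 17.98 and 150.3 ± 6.28 CPM (SD, n = 4 each). Syt5, another vesicle synaptotagmin, averaged 163 ± 10.9 and 169 ± 17.1 CPM. Doc2b, a high-affinity calcium sensor of spontaneous release, was the scarcest member at 6.44 ± 0.60 and 7.95 ± 1.99 CPM. Its log2 fold change of 0.31 ± 0.19 (SE) did not pass (edgeR adjusted p = 0.583), and it was 0.17 without LAQ 7, its highest library.

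**Figure D3:**
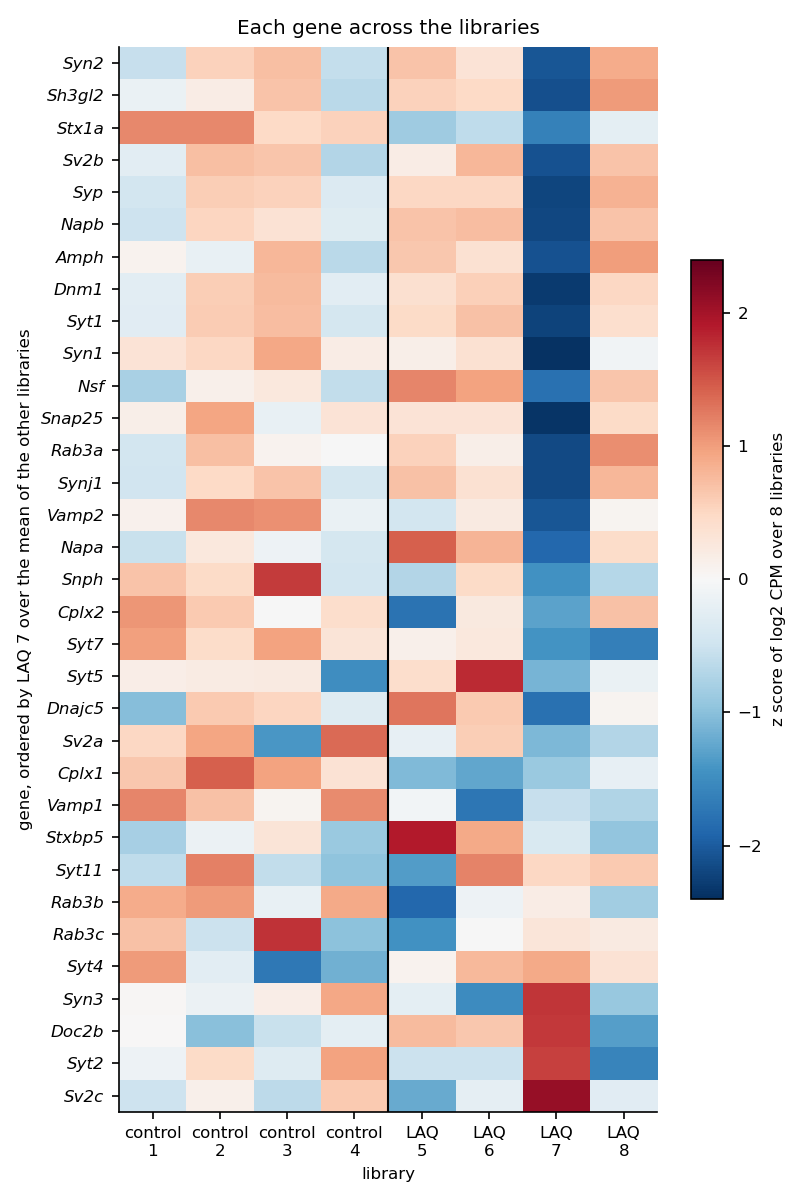
The z score of log2 CPM for each of the 33 genes (rows) in each library (columns, control left of the line), with genes ordered by LAQ 7 over the mean of the other 7 libraries. LAQ 7 is the lowest library for 18 genes, most of them at the top of the map, and the highest (red) for Syn3, Doc2b, Syt2 and Sv2c, where it is the highest.

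The vesicle proteins had 8 of 10 members with lower fitted values in LAQ, 1 of them at an unadjusted p under 0.05 and 0 past edgeR's test. That one was Rab3b, a Rab GTPase that docks secretory vesicles. It stood at 47.2, 47.8, 42.3 and 47.3 CPM in control and at 35.5, 42.6, 43.9 and 39.5 CPM in LAQ. LAQ 6 and 7 lay above control 3, so the groups overlapped, and the log2 fold change was -0.19 ± 0.086 (SE, adjusted p = 0.442). Rab3a, the main Rab3 of vesicles in the forebrain, stood at 509.8, 575, 538 and 534 CPM in control and 565, 542, 427 and 599 CPM in LAQ. Rab3c, its close relative, averaged 135 ± 11.5 and 131 ± 7.17 CPM (SD, n = 4 each).

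The synapsins tether vesicles into the reserve pool. Syn1 stood at 637, 649.6, 683 and 626 CPM in control and 623, 639, 463 and 606 CPM in LAQ, with LAQ 5, 7 and 8 below the control range. Syn2 spread more widely, at 514, 652, 675 and 513 CPM in control and 669, 620.1, 375 and 698 CPM in LAQ, and the fitted log2 difference was 0.0050 ± 0.17 (SE). Syn3, the synapsin of immature neurons, ran the other way, with 59.9 to 70.8 CPM in control and 59.1, 48.4, 80.1 and 53.2 CPM in LAQ. LAQ 7 was its highest library and the other LAQ libraries were below every control. Its log2 fold change was -0.082 ± 0.14 (SE) with all libraries and -0.25 ± 0.090 (SE) without LAQ 7 (edgeR adjusted p = 0.143).

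Syp encodes synaptophysin, an abundant vesicle membrane protein that binds VAMP2. It stood at 919, 1072, 1064 and 935 CPM in control and at 1058, 1057, 708 and 1109 CPM in LAQ, with only LAQ 7 below the controls. The SV2 proteins are transporter-like glycoproteins of the vesicle. Sv2a, the widespread isoform, was within 443 to 519.6 CPM in control and 451 to 497 CPM in LAQ, with its lowest library in control. Sv2b stood at 329, 402, 397 and 299.6 CPM in control and 359, 408, 225 and 399 CPM in LAQ. Sv2c, the isoform concentrated in the basal ganglia, stood at 29.2, 35.1, 28.1 and 40.7 CPM in control and 23.7, 31.8, 62.4 and 31.3 CPM in LAQ. Sv2b was lowest and Sv2c highest in LAQ 7, and the log2 fold change of Sv2c turned from 0.17 ± 0.25 (SE) to -0.21 ± 0.14 (SE) without that library.

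Of the 4 retrieval genes, 2 had lower and 2 higher fitted values in LAQ, between -0.065 and 0.029 on the log2 scale, and 0 passed edgeR's test. Dnm1, the neuronal dynamin that cuts vesicles free, stood at 917, 1022, 1045 and 916 CPM in control and 996, 1019.7, 703 and 1009.9 CPM in LAQ. Synj1, the lipid phosphatase that strips clathrin coats, averaged 272 ± 15.6 and 269 ± 34.1 CPM (SD, n = 4 each). Sh3gl2, endophilin A1, averaged 388 ± 44.6 and 396 ± 100.3 CPM, and Amph, amphiphysin, 151 ± 13.6 and 152 ± 28.5 CPM. In each of the 4, LAQ 7 was the lowest of the 8 libraries. Without it the log2 fold changes were 0.049, 0.076, 0.20 and 0.14 in that order, and Sh3gl2 had an unadjusted p of 0.0396 and an adjusted p of 0.225.

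Over the whole set, LAQ 7 held the lowest value for 18 of 33 genes (54.5%), against 16.1% of all genes tested, and the highest for 4 (12.1%), against 15.8%. Relative to the mean of the other 7 libraries it was 39.6% lower for Syn2, 39.5% lower for Sh3gl2, 39.5% lower for Stx1a and 39.4% lower for Sv2b. For Syt11, Rab3b and Rab3c it was 1.02 times that mean, and for Sv2c it was 1.99 times. The SD was larger among the LAQ than the control libraries in 28 of the 33 genes (84.8%, against 63.1% of all genes), and in 12 without LAQ 7 (36.4%, against 52.5%). Among the 18 genes lowest in LAQ 7, Stx1a was the only one with LAQ 5, 6 and 8 below every control too. Without that library, 9 of the 33 genes had an unadjusted edgeR p under 0.05 (27.3%), beside 19.7% of all genes. They were Stx1a, Vamp1, Cplx1, Syt2, Syn3 and Rab3b on the lower side, beside 10.8% of all genes, and Nsf, Napa and Sh3gl2 on the higher side, beside 8.92%.

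Ratios of related genes within a library hardly depend on how that library was scaled, and 10 pairs are described here, compared by an exact two-sided permutation test whose smallest possible p is 0.0286. In all 10 the groups overlapped, with exact p of 0.314 or more and 1 after adjustment over the 11 pairs computed. They included Vamp1 to Vamp2 (difference -0.095), Cplx2 to Cplx1 (0.0076), Syn2 to Syn1 (0.14) and Napb to Napa (-0.059). LAQ 7 lay above all other libraries in 5 of these 10 pairs, most clearly in Syt2 to Syt1 (-3.70 against -5.27 to -4.26), Syn3 to Syn1 (-2.53 against -3.72 to -3.14) and Sv2c to Sv2a (-2.85 against -4.31 to -3.67).

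**Figure D4:**
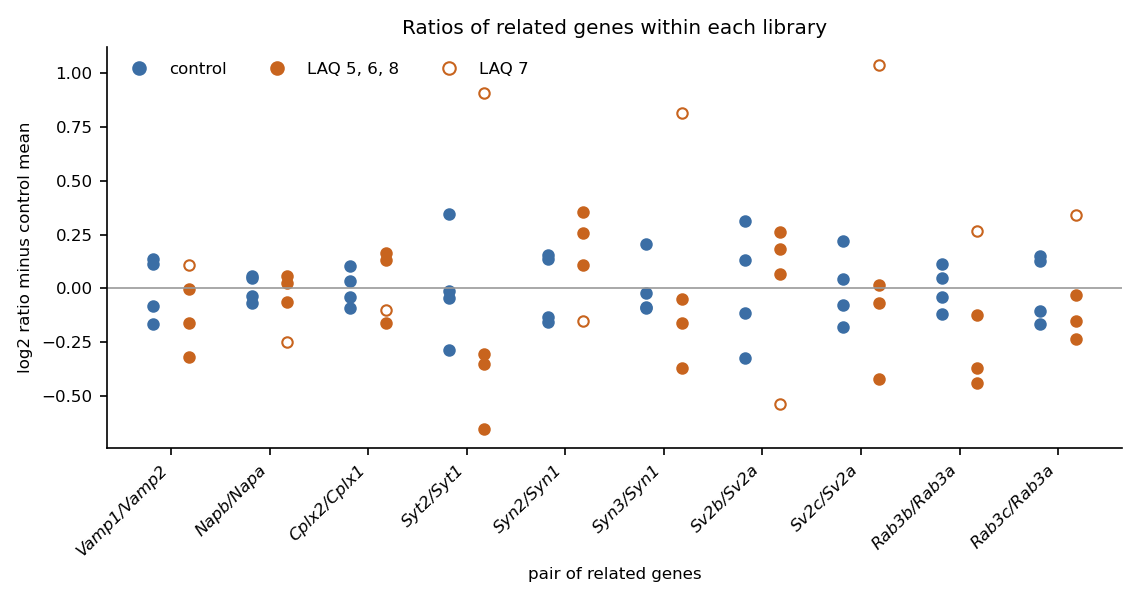
Log2 ratio of 10 pairs of related genes in each library, as a difference from the control mean of that pair; open points are LAQ 7. The groups overlap in all 10 pairs, and LAQ 7 lies farthest above the other points in Syt2/Syt1, Syn3/Syn1 and Sv2c/Sv2a.

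Per kilobase of merged exon, the 33 control levels spanned 1.48 to 419 CPM per kb. Snap25 was highest at 419 ± 19.9 CPM per kb in control (SD, n = 4), before Cplx1 at 371 ± 11.9 and Vamp2 at 335 ± 18.2, and these neighbours differed by more than their SDs. Stx1a, at 84.5 ± 8.06 CPM per kb in control and 55.1 ± 8.11 in LAQ, stood beside Syn2 (83.7 ± 12.4) in control and below Syt5 and Cplx2 (71.2 ± 7.20 and 60.8 ± 7.58) in LAQ. The scarce end held Syt2 (6.18 ± 0.84), Syn3 (5.19 ± 0.40), Stxbp5 (4.22 ± 0.25), Sv2c (3.43 ± 0.60) and Doc2b (1.48 ± 0.14). Within families, Vamp2 was above Vamp1 (15.9 ± 0.81), Syt1 (138 ± 10.5) above Syt2 and Sv2a (106 ± 7.29) above Sv2b (42.6 ± 6.05) and Sv2c. Merged exons include long untranslated ends that may not all be used in this tissue, and such genes, Vamp1 with 10167 bases among them, would be understated per kilobase.

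**Figure D5:**
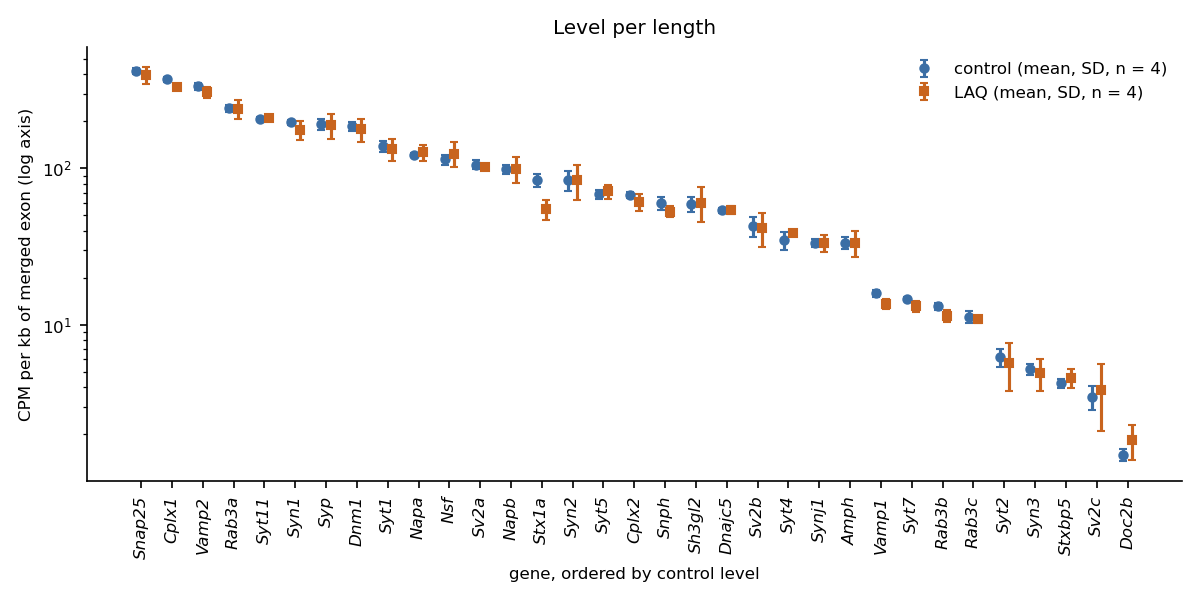
Mean CPM per kilobase of merged exon (log axis) with SD over 4 libraries, in control (circles) and LAQ (squares), for the 33 genes ordered by control level. Levels run from 419 for Snap25 to 1.48 for Doc2b in control, and Stx1a is the gene whose LAQ square sits most clearly below its control circle.

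A wider list of 68 genes of the same pathway was examined next, of which 66 were found in the table and tested. By edgeR's test 0 passed, 39 were lower and 27 higher in LAQ, with a median of -0.033 against -0.00120 over all genes. Unc13a, the Munc13 that primes vesicles by opening syntaxin, stood at 175, 180.2, 184 and 179.5 CPM in control and 138, 165, 150.1 and 139 CPM in LAQ. On the log2 scale it differed by -0.28 ± 0.071 (SE, adjusted p = 0.222), and its relative Unc13b by -0.34 ± 0.094 (adjusted p = 0.244). In both, every LAQ library was below every control library. Sncb, beta-synuclein, and Syt13, a synaptotagmin that lacks calcium binding, also did not overlap, with -0.23 ± 0.078 and -0.33 ± 0.12 (SE), and Syt13 stood at -0.22 without LAQ 7. These 4 genes were 6.06% of the 66, beside 3.61% of all genes, and 9.09% of the 66 had an unadjusted p under 0.05, beside 11.1% of all genes. On the higher side, Synpr (synaptoporin, a synaptophysin relative rich in hippocampal mossy fibres) stood at 126, 110.0, 139 and 126 CPM in control and 164, 177, 135 and 166 CPM in LAQ. On the log2 scale it differed by 0.36 ± 0.095 (SE, adjusted p = 0.228), or 0.43 ± 0.079 without LAQ 7, when it passed (adjusted p = 0.0205) as the only gene of the 66 (1.52%, beside 2.13% of all genes). The 6 hippocampal neuron markers, which could bear on Synpr, summed to 213 to 338 CPM in control and 452, 462, 266 and 271 CPM in LAQ, and their part was not tested. Stxbp6 (amisyn, a tomosyn-like SNARE) at 0.39 ± 0.19, Napg, the gamma SNAP adaptor, at 0.13 ± 0.10 (0.22 without LAQ 7) and Rab5a, an early endosome Rab, at 0.11 ± 0.074 (SE) followed.

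The strand setting of the counting was not given in the sources used here. Exons of 11 of the 33 genes overlap an exon on the opposite strand, most in Syp (16.8% of its exonic bases, with Gm14703), Syt4 (14.5%, with Gm26658) and Syn3 (14.1%, with Timp3). Whether reads of these neighbours entered the counts was not tested. In GRCm38 with GENCODE M21, the protein-coding gene Stx1a lies on chromosome 5 from 135023482 to 135051100, Vamp1 on chromosome 6 from 125215551 to 125245964, Cplx1 on chromosome 5 from 108518554 to 108550024 and Syt7 on chromosome 19 from 10389090 to 10453180. Rab3b lies on chromosome 4 from 108879063 to 108943324 and Nsf on chromosome 11 from 103821782 to 103954056.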

How the data were processed

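Poly(A) RNA of 8 corpus callosum libraries was counted by the authors, who deposited raw read counts per gene symbol. Per the submitters' processing notes, the tools named are STAR 2.5.2b, HTSeq, bcl2fastq 2.17.1.14 and DESeq2 1.10.1, and the build is GRCm38.p3. The strand setting, annotation release and read filters are not given in the sources used here. Of the table, 0 sample columns were left unused. From these counts, genes were kept by filterByExpr (minimum count 10, minimum total 15), scaled by TMM and compared by edgeR's two-sided quasi-likelihood test with all 8 libraries and no covariate (edgeR 4.0.16, limma 3.58.1, R 4.3.3), with Benjamini-Hochberg adjustment over 15771 genes and a threshold of 0.05. Titles gave the groups. CPM are TMM-scaled, and log2 ratios used a prior count of 2. The standard error is the log2 fold change divided by the square root of F. Libraries of a group differed beyond sampling noise (chi-square over its degrees of freedom, 4.07 to 23.9 for the pairs within a group).

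The members, gene lists and pairs were chosen with earlier results of these data known. Members were all described, with values in every library for those at an unadjusted p under 0.05, those whose groups did not overlap and the member most abundant per length in each role. From the wider list the 4 of smallest p in each direction were named. Alternatives were 2 other normalizations, 2 other filters, DESeq2 1.42.0, limma voom, robust edgeR, 3 marker scores as covariates, another threshold, another prior count and leaving out each library. The values of 1 further ratio and of some genes of the wider list are not reported here. Counts of overlap without LAQ 7 were added after the data had been seen. Lengths and positions came from GENCODE M21, promoters from RefSeq on GRCm38.p6. The steps were tested on simulated data. Figures used matplotlib 3.10.9, and permutation tests scipy 1.17.1.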

Additional observations from a re-analysis of the deposited data

Results flagged for a closer look

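Of 88 groups of 4 libraries examined, 8 held a library whose gap to its nearest neighbour took a share of the group's range above Dixon's 95% critical value, and chance flags about 1 in 20 groups. In 6 of the 8 the library was LAQ 7, and it was low in each: Snap25 stood at 2181 CPM, Napb at 507 CPM, Syt1 at 847 CPM, Syp at 708 CPM, Dnm1 at 703 CPM and Synj1 at 219 CPM. These genes are abundant in forebrain neurons, and the cortical excitatory markers were also lowest in that library, at 2254 CPM. Their part in these low values was not tested. The others were Syt5 in control 4, at 146 CPM, and Rab3b in control 3, at 42.3 CPM.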

How the results depend on the processing

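Over all alternatives, 19 of 101 summary values moved, a count by over 1.5 times or the median of the 33 genes by more than its SD over libraries. The median still changed sign within that SD, from -0.038 to 0.073 with the pan-neuronal score, 0.076 with the cortical excitatory score, 0.048 without LAQ 7 and 0.0069 without control 3. Past an adjusted p of 0.05 stood 25 genes, 1 of them among the 33, without an expression filter, and 129 genes, 1 among the 33, with DESeq2. With marker scores as covariates, 1 gene passed with the pan-neuronal score, 737 genes, 2 among the 33, with the cortical excitatory score, and 417 genes, 1 among the 33, with the oligodendrocyte score. Those 3 scores put 14, 12 and 16 of the 33 at an unadjusted p under 0.05, beside 19.0%, 21.6% and 19.9% of all genes, and the pan-neuronal and oligodendrocyte scores left 13 and 11 lower in LAQ, with a median log2 fold change of 0.092 under the oligodendrocyte score. The covariates use genes measured in the same libraries. Leaving out 1 library at a time gave 0 to 339 genes and 0 to 1 of the 33 past the threshold and 2 to 9 of the 33 at an unadjusted p under 0.05. Only the fit without LAQ 7 called any gene, 339 in all, with 9 of the 33 at an unadjusted p under 0.05, and the fit without control 2 gave the 2. Stx1a was negative in every fit run, with edgeR or voom adjusted p from 0.0185 to 0.409, and 4.87e-04 with DESeq2.

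With the pan-neuronal score the log2 fold changes that changed sign were Snap25 0.056, Syt1 0.16, Syn1 0.0064, Syp 0.21, Sv2b 0.31, Sv2c -0.38, Rab3a 0.13, Dnm1 0.14 and Synj1 0.14. With the cortical excitatory score the log2 fold changes that changed sign were Snap25 0.039, Syt1 0.14, Syp 0.18, Sv2b 0.24, Sv2c -0.33, Rab3a 0.10, Dnm1 0.12 and Synj1 0.12. With the oligodendrocyte score the log2 fold changes that changed sign were Snap25 0.091, Vamp2 0.030, Snph 0.0029, Syt1 0.26, Syn1 0.092, Syp 0.31, Sv2b 0.44, Sv2c -0.47, Rab3a 0.17, Dnm1 0.24 and Synj1 0.20. With limma voom the log2 fold changes that changed sign were Napb -0.0082, Syn2 -0.024, Sh3gl2 -0.0061 and Amph -0.0076. Leaving out 1 library at a time, the log2 fold changes whose sign changed ran as follows: Snap25 -0.11 to 0.0074, Napb -0.036 to 0.14, Dnajc5 -0.018 to 0.048, Syt1 -0.10 to 0.061, Syt2 -0.38 to 0.021, Syt5 -0.0064 to 0.11, Syn2 -0.082 to 0.17, Syn3 -0.25 to 0.010, Syp -0.081 to 0.11, Sv2b -0.12 to 0.12, Sv2c -0.21 to 0.33, Rab3a -0.073 to 0.076, Rab3c -0.084 to 0.0069, Dnm1 -0.11 to 0.049, Synj1 -0.049 to 0.076, Sh3gl2 -0.068 to 0.20 and Amph -0.057 to 0.14. Among the ratios, the differences that changed sign ran over Napb to Napa -0.098 to 0.0045, Cplx2 to Cplx1 -0.044 to 0.064, Syt2 to Syt1 -0.44 to 0.083, Syn3 to Syn1 -0.19 to 0.20, Sv2b to Sv2a -0.12 to 0.17, Sv2c to Sv2a -0.16 to 0.33 and Rab3c to Rab3a -0.14 to 0.051. The cause of these changes was not tested.

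No paired analysis was possible because the groups share no replicate number. With 4 libraries a group, the exact test of a ratio could not go below 0.0286. In simulated counts for the comparison of LAQ with control, over 15614 genes, edgeR recovered 52% of 1.5-fold and 86% of 2-fold changes. Those counts held planted changes of up to 4-fold and gave 177 calls, 12 of them false. The fit of the real counts called 0 genes, and the recovery shares need not hold there. A miss of the threshold therefore does not show that a gene was level. Among the scarce genes, Doc2b had 51 to 123 reads and a standard error of 0.19, and Sv2c 246 to 758 reads and 0.25. The counts of overlap without LAQ 7 were chosen after the data had been seen.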
